A study of Mus musculus with 24 samples.

Results

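Removing the small RNAs from intact mouse liver RNA took away most of the signal on a miRNA array, but by very unequal amounts from miRNA to miRNA. Some bright miRNAs kept under 1% of their signal, miR-122-5p kept 28.2% and let-7b-5p 72.7%, and miR-494-3p did not pass the test in either direction. Most miRNAs with late numbers did not pass either, but many of them had little signal to lose. Of 326 tested miRNAs numbered 3000 and above, 99 were detected on all 3 arrays with small RNAs. Of all 631 tested miRNAs, 443 did not pass. The comparison set 3 arrays of RNA depleted of small RNAs against 3 arrays of RNA that contained them, out of 24 arrays in the series. Each of the 3 mice, numbered 7, 10 and 9, gave 1 array to each group. The arrays were chosen by their titles and descriptions, which name the kit, the storage time and the DNase step.

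All 6 RNAs came from liver of male mice that went into stabilizing reagent right after harvest, a storage time of 0 h, and all 6 had a DNase digestion. The study's methods name C57BL6 mice of an Il1a knock-out strain for other animals, and neither strain nor age for these. The RNA with and without small RNAs of a mouse came from different parts of its liver. RNA with small RNAs was isolated with the miRNeasy Kit. RNA depleted of small RNAs was isolated with the RNeasy Kit and received no RNase and no incubation. The study's methods state that small RNAs are strongly reduced in such RNA but not fully absent. Kit and small RNA content changed together and cannot be told apart. The RNA integrity number (RIN), which drops as long RNA breaks down, was 8.9 to 9.0 with small RNAs and 9.2 to 9.4 after depletion.

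miRNAs are short single-stranded RNAs cut from hairpin precursors, each hairpin giving a 5p and a 3p arm. Bases 2 to 8 of the mature miRNA, the seed, pair with target messenger RNAs, and miRNAs with the same seed form a family. In liver, miR-122 makes up a large part of all miRNA in hepatocytes. Silica columns bind long RNA under conditions in which short RNA mostly flows through, and a small RNA kit changes these conditions so that short RNA also binds. A probe on a miRNA array can be lit by its miRNA or by other RNA with a matching sequence. In such bulk RNA, fewer copies of a miRNA in the tissue and fewer copies carried through the isolation cannot be told apart from the signal alone. Here both RNAs of a mouse came from parts of the same liver, at a storage time of 0 h, and were isolated with different kits.

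The sequences below, taken from RefSeq (build GRCm38.p6) and written 5′ to 3′ with the seed in capitals, are those the results turn on. The first set lost nearly all signal.

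mmu-miR-5100: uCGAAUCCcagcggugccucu
mmu-miR-6366: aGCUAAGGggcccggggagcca
mmu-miR-3968: cGAAUCCCacuccagacacca
mmu-miR-21a-5p: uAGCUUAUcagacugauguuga
mmu-miR-101a-3p: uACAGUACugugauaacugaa

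The next set is the let-7 family, which shares the seed GAGGUAG and whose members kept between 10.9% and 72.7% of their signal, listed from the least to the most lost.

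mmu-let-7b-5p: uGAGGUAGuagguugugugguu
mmu-let-7c-5p: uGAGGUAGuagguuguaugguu
mmu-let-7e-5p: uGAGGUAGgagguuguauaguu
mmu-let-7a-5p: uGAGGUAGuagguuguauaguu
mmu-let-7d-5p: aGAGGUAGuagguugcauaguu
mmu-let-7i-5p: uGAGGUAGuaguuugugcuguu
mmu-miR-98-5p: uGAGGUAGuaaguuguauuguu
mmu-let-7f-5p: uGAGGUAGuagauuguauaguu
mmu-let-7g-5p: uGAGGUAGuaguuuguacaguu

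The miR-29 and miR-15/16 families are shown because their members, alike in seed, kept unequal shares of their signal.

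mmu-miR-29a-3p: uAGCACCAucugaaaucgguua
mmu-miR-29c-3p: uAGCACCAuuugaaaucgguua
mmu-miR-29b-3p: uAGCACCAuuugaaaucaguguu
mmu-miR-15b-5p: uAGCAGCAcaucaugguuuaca
mmu-miR-16-5p: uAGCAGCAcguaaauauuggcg
mmu-miR-15a-5p: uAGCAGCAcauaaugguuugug

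The last set holds miRNAs that did not pass the test and miRNAs whose signal rose.

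mmu-miR-494-3p: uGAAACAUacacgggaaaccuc
mmu-miR-1224-5p: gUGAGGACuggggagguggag
mmu-miR-8117: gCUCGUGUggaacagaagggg
mmu-miR-669n: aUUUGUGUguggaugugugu
mmu-miR-574-3p: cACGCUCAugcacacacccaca
mmu-miR-3082-5p: gACAGAGUgugugugucugugu

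On GRCm38.p6, miR-5100 lies at chr11:60728698-60728718 within the bounds of the protein-coding gene Mief2, miR-3968 at chr11:115447969-115447989 within Trim80, and miR-21a-5p at chr11:86584120-86584141 within Vmp1. miR-6366 at chr16:18165093-18165114 and miR-494-3p at chr12:109715367-109715388 overlap no other listed gene. Exon and intron bounds were not used here.

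Signals are background-subtracted fluorescence in intensity units, as scanned. The detected miRNAs, those flagged as such by the scanner software, numbered 285, 303 and 308 on the arrays with small RNAs (mice 7, 10 and 9) and 230, 192 and 186 on the depleted arrays. Their summed signal was 55237, 109374 and 92287 before and 8859, 9631 and 8313 after depletion. Both measures were lower in all 3 mice and the groups did not overlap. The log2 of the summed signal fell by 3.21 ± 0.49 (SD of 3 mice), and its p in a two-sided exact permutation test was 0.1, the lowest value that groups of 3 can reach. The 4 spike-in features, which read synthetic RNAs added to every sample, dropped by 0.27 ± 0.155 on the log2 scale (SD, n = 3). No spot was saturated. Array number is the limit on precision, and mouse, slide and scan cannot be told apart, since the arrays of each mouse shared a slide.

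The signal was also spread over other miRNAs. miR-6366 held 40.1% ± 2.22 (SD, n = 3) of all detected signal with small RNAs and 1.38% ± 0.183 after depletion. miR-122-5p went the other way, from 11.9% ± 0.693 to 30.6% ± 6.47, and became the brightest miRNA although its own signal fell. miR-3963 held 20.7% ± 3.19 and 20.2% ± 2.66, a difference within the spread between mice. The let-7 family went from 3.96% ± 0.369 to 11.6% ± 1.87 of the signal. The groups did not overlap in the shares of miR-6366, miR-122-5p and the let-7 family, for which the exact permutation test again gave its lowest p of 0.1, against 0.7 for miR-3963.

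For single miRNAs, values on the glog2 scale were compared, a log2 scale that flattens near background, on which a change of 1 is a 2-fold change for bright signals. Of 1881 miRNAs on the array, 631 had been detected on at least 5 of the 24 arrays and were tested. A miRNA was called at a Benjamini-Hochberg adjusted p under 0.05 (limma, over all miRNAs tested) and a change of at least 1. After depletion 154 miRNAs were lower, which is 24.4% of those tested, and 34 were higher, which is 5.39%. The median change over all tested miRNAs was -0.17. Every called miRNA moved the same way in all 3 mice, and every probe of all 154 lower miRNAs had a lower mean signal, as every probe of 33 of the 34 higher miRNAs had a higher one. The calls were made from these same arrays and probes, so this agreement largely follows from the rule and adds no separate support. Under other scalings between arrays the lower and higher calls numbered 150 and 19 (no normalization), 153 and 22 (spike-in features), 132 and 64 (vsn on the tested miRNAs), 119 and 107 (quantile normalization) and 82 and 252 (75th percentile of the miRNAs detected on all arrays), with 42 and 29 after normexp background correction and 188 and 100 with no filter. Over these scalings the median change of all tested miRNAs ran from -0.45 (spike-in features) to 0.30 (75th percentile of the miRNAs detected on all arrays), and the latter sets bright signals level between arrays by construction.

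**Figure D1:**
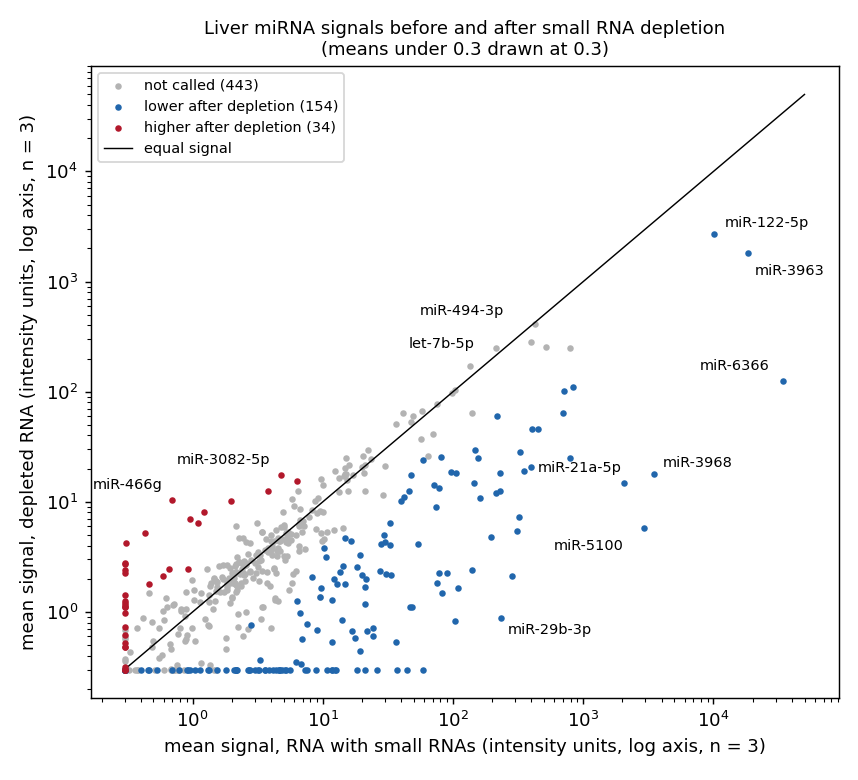
Mean signal of each of the 631 tested miRNAs in RNA with small RNAs (x axis) and in depleted RNA (y axis), both in intensity units on log axes, 3 arrays each, coloured by call. The 154 lower miRNAs leave the line of equal signal mostly above 10 units, where miR-6366 stands at 33950 and 124.2 units, while the 34 higher miRNAs sit at or below 17.61 units on the depleted arrays.

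Detection followed the signal. Over the 6 arrays 144 miRNAs were detected on every array, 74 were detected on all 3 arrays with small RNAs and on no depleted array, and 12 showed the opposite pattern. Of the 154 lower miRNAs, 121 were detected on all 3 arrays with small RNAs and 59 of these on no depleted array, while 46 were still detected on all 6. A further 20 were detected on no array of either group, so that their change lies below the detection level. For the 272 miRNAs detected on all 3 arrays with small RNAs, the unnormalized signal left after depletion, as a percentage of the signal in the same mouse, had a median of 47.5%, with quartiles of 8.87% and 98.8%. The medians within mice 7, 10 and 9 were 62.7%, 34% and 37.1%, and mouse 7 also had the lowest summed signal before depletion. Of the 6 miRNAs with a mean of 1000 or more units before depletion, 4 kept under 5%, and none of the 6 kept 50%.

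The nearly lost signals were led by miRNAs of late numbering. miR-5100 gave 1486, 4263 and 3083 units with small RNAs and 7.907, 5.631 and 3.666 units after depletion, which left 0.261% ± 0.235 (SD, n = 3), the lowest share among bright miRNAs. Its change was -8.66 on the glog2 scale, with an SE of 0.46 and a limma adjusted p of 5.56e-12. miR-6366, the brightest miRNA of intact liver RNA here, went from 23170, 41140 and 37530 units to 127.5, 147.4 and 97.91 units and kept 0.390% ± 0.147. miR-3968 went from 1639, 5130 and 3716 units to 18.45, 19.57 and 15.39 units (0.640% ± 0.421 left, limma adjusted p = 4.72e-13). In all of these every depleted array lay far below every array with small RNAs. miR-3963 is numbered close to miR-3968 but behaved otherwise: it kept 12% ± 7.62 of 9627, 26050 and 19130 units, and its 2003, 1996 and 1442 units made it the second brightest signal in depleted RNA.

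Among miRNAs numbered below 300, miR-21a-5p, widely linked to proliferation and injury, lost the most signal after miR-122-5p. Its signal was 1542, 2452 and 2221 units before and 16.65, 10.82 and 16.79 units after depletion, so 0.759% ± 0.319 was left (change -6.98, SE 0.37, limma adjusted p = 5.56e-12). miR-101a-3p, miR-101c and miR-212-3p had 42.05 to 77.26, 25.23 to 48.14 and 21.92 to 56.69 units with small RNAs and were detected on no depleted array, at least 52.8-fold, 33.2-fold and 37.7-fold lower. These folds are bounds against the lowest detected signal of each depleted array. miR-29b-3p and miR-19b-3p were likewise undetected, at least 190.0-fold and 83.6-fold lower. miR-148a-3p, abundant in hepatocytes, kept 0.842% ± 0.337 and was detected on 1 depleted array.

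**Figure D2:**
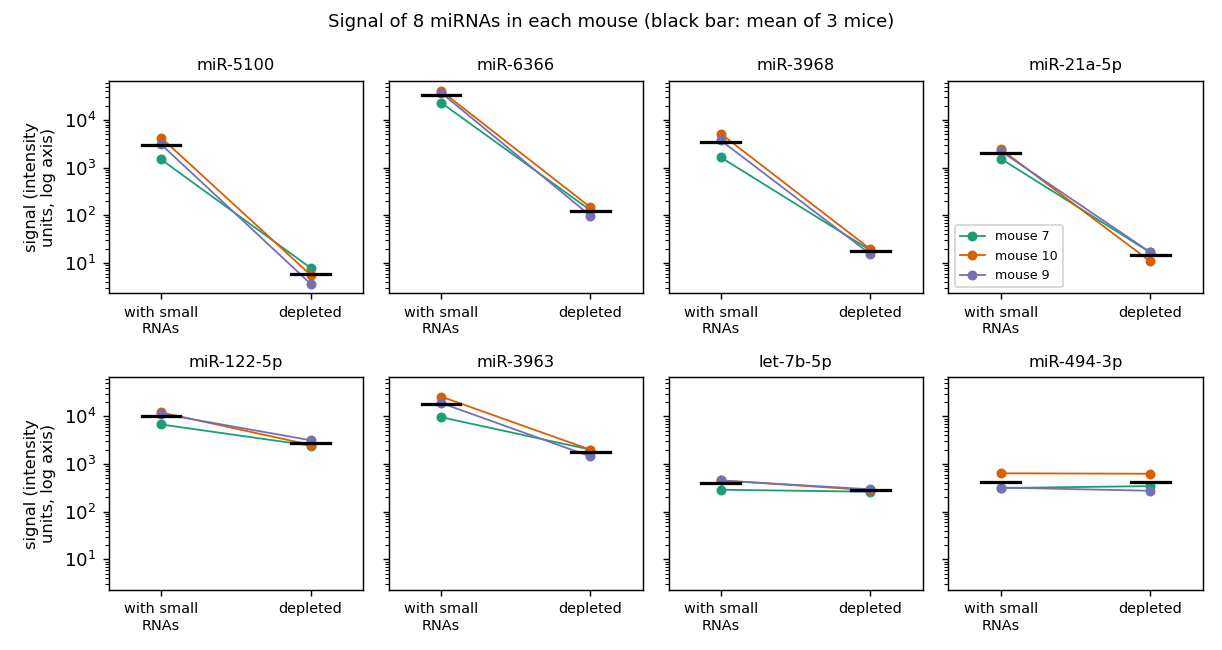
Signal of 8 miRNAs in each mouse, in intensity units on a log axis, with a line for each mouse from RNA with small RNAs to depleted RNA and black bars at the means of 3 mice. The top row keeps under 1%, miR-122-5p and miR-3963 keep 28.2% and 12%, let-7b-5p is lower in each mouse at 72.7%, and miR-494-3p keeps 97.7%.

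All 7 miRNAs of the hepatocyte list were lower, against 24.4% of all miRNAs tested, with a median change of -4.73. All 7 were detected on all 3 arrays with small RNAs, and of the 272 miRNAs so detected 44.5% were lower. The list counts miR-21a-5p, described above, and miR-22-3p beside the arms of miR-122. miR-122-5p itself gave 6767, 12120 and 11370 units with small RNAs and 2436, 2521 and 3157 units in depleted RNA. The groups were apart, yet 28.2% ± 7.61 remained. In limma its change of -1.79 had an adjusted p of 0.00622 and turned positive under the 75th percentile of the miRNAs detected on all arrays, quantile normalization and normexp. The call of miR-122-5p was also lost without mouse 10 (limma adjusted p = 0.0925), without mouse 9 (0.0624), on the 6 arrays alone (0.0654) and with no filter (0.17), and 6 of the 7 were lower in each of these fits. Under the 3 settings that turned its sign, 5 of the 7 were lower, and miR-122-5p was called higher with quantile normalization and normexp. The other arm of the same hairpin, miR-122-3p, kept only 2.61% ± 1.12, from 53.09, 90.81 and 81.02 units to 2.013, 1.421 and 2.014 units. Others of the list also differed: miR-22-3p kept 14.2% ± 1.07, miR-194-5p 5.76% ± 2.54 and miR-192-5p 3.29% ± 1.37.

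The let-7 family, broadly expressed regulators of growth genes, was graded. Of its 9 members 5 were lower, 55.6%, and 4 did not pass the test. All 9 were among the 272 miRNAs detected on all 3 arrays with small RNAs, of which a near share, 44.5%, was lower. Of all miRNAs tested 24.4% were lower. The median change of the family was -1.76, and turned to 0.40, 0.23 and 0.12 under the 75th percentile of the miRNAs detected on all arrays, quantile normalization and normexp. let-7b-5p had 289.4, 453.0 and 451.7 units before and 262.0, 282.5 and 295.2 units after depletion, and kept 72.7% ± 15.5 (change -0.41, SE 0.44, limma adjusted p = 0.619). let-7a-5p went from 569.3, 940.5 and 850.5 to 258.4, 217.2 and 272.3 units (33.5% ± 11.2 left). Its change of -1.56 had a limma adjusted p of 0.0529, and 0.0346 with the mouse as a replicate block. let-7f-5p, nearly as bright as let-7a-5p at the start, went from 599.7, 1005 and 901.1 to 114.5, 91.23 and 124.9 units and kept 14.0% ± 5.01 (change -2.82, limma adjusted p = 0.00153). let-7g-5p kept the least, 10.9% ± 4.21.

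These members differ by few bases. Counted from 1 at the 5′ end of let-7a-5p, let-7f-5p carries G12A and let-7c-5p A19G, while let-7b-5p carries A17G and A19G and let-7g-5p G12U and U18C. let-7f-5p kept less than let-7a-5p in every mouse, and let-7c-5p and let-7b-5p kept more. The shares of the 9 members did not follow their G and C content throughout. let-7b-5p has the highest content, 45.5%, and kept the most. let-7c-5p, let-7e-5p, let-7d-5p and let-7i-5p all have 40.9% and kept 51.4%, 43.0%, 29.0% and 18.6%. let-7a-5p and let-7g-5p have 36.4% and kept 33.5% and 10.9%, the latter less than let-7f-5p and miR-98-5p, which have 31.8% and kept 14.0% and 17.7% (22.5% for miR-98-5p with all probes summed). Probes for sequences this close can share signal, and the part of this in the shares was not tested.

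**Figure D3:**
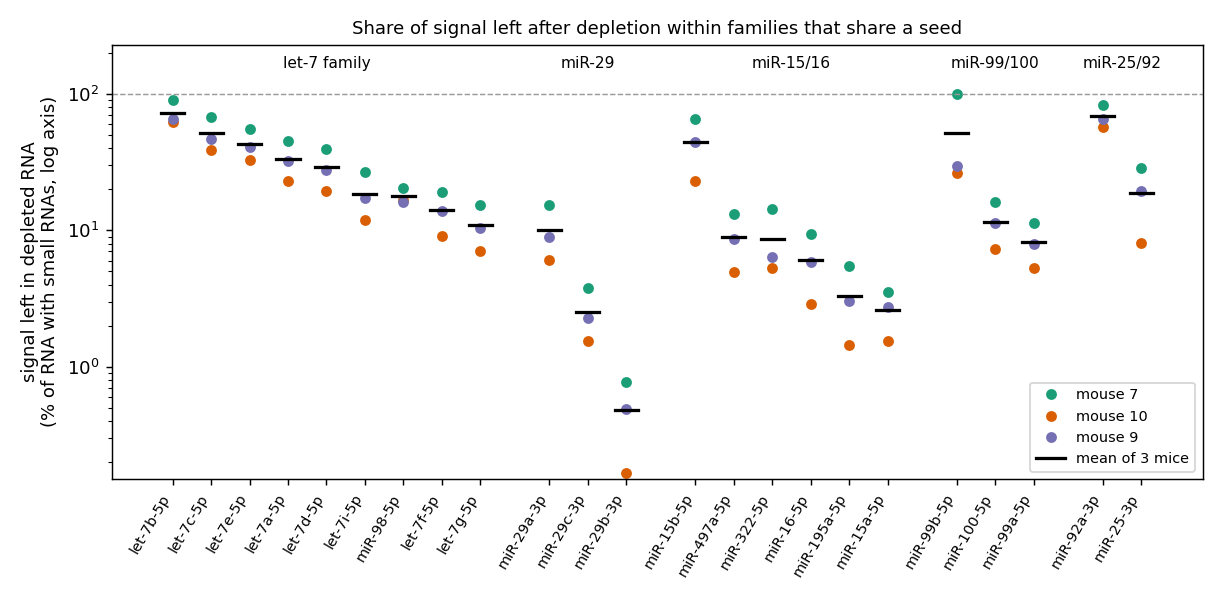
Signal left in depleted RNA as a percentage of the signal with small RNAs in the same mouse (log axis), for members of families that share a seed, with a point for each of 3 mice and a black bar at the mean. Within the let-7 family the means run from 72.7% to 10.9%, and miR-15b-5p, at 44.4%, stands above the other members of its family.

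The miR-29 family, known for its collagen targets, was graded in the same way. miR-29a-3p had 468.3, 910.1 and 705.4 units with small RNAs and 71.89, 55.29 and 63.19 units without, a rest of 15.4%, 6.08% and 8.96%. miR-29c-3p, which differs from it by C10U alone, kept 2.53% ± 1.15 of 215.1, 419.5 and 326.1 units. miR-29b-3p fell from 129.4, 352.5 and 213.3 units to about background, 1.002, 0.5877 and 1.05 units. The order was the same in each mouse. All 8 members of the miR-29 and miR-30 families were lower, with miR-30a-5p at 9.54% ± 3.76 and miR-30e-5p at 2.03% ± 1.28. The 8 were among the 272 miRNAs detected on all 3 arrays with small RNAs, of which 44.5% were lower. Of all miRNAs tested 24.4% were lower.

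In the miR-15/16 family, linked to cell cycle control, the odd member was miR-15b-5p. It had 47.76, 79.0 and 65.53 units before and 31.28, 18.06 and 29.36 units after depletion (44.4% ± 21.3 left, change -1.19, limma adjusted p = 0.11). miR-15a-5p went from 149.2, 239.2 and 199.3 units to 5.296, 3.689 and 5.427 units and kept 2.60% ± 1.01 (change -5.04, limma adjusted p = 2.60e-09). The pair has equal G and C content, 40.9%, and differs by A12C, G20A, U21C and G22A. miR-16-5p, encoded next to miR-15a on chromosome 14 and next to miR-15b on chromosome 3, kept 6.04% ± 3.21. With the miR-26 family, 5 of 6 members of this list were lower, against 24.4% of all miRNAs tested. All 6 were among the 272 detected on all 3 arrays with small RNAs, of which 44.5% were lower.

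The other lists were mostly lower too, again against 24.4% of all miRNAs tested and 44.5% of the 272 detected on all 3 arrays with small RNAs. Every tested member of the lists in this paragraph was among those 272. The miR-23, miR-24 and miR-27 clusters had 5 of 5 members lower, from 3.22% left (miR-27a-3p) to 21.2% (miR-23b-3p). The miR-101 and miR-148 families (with miR-152-3p) had 6 of 6 lower, with 5 of them on no depleted array and a highest share of 2.72%. In the miR-17-92 and miR-106b-25 clusters, tied to proliferation, 6 of 7 tested members were lower and miR-92a-3p was not, at 68.4% ± 13.1 of its signal (change -0.48, limma adjusted p = 0.35). The miR-99/100 and miR-125 families split: miR-99a-5p and miR-100-5p were lower with 8.16% and 11.6% left, while miR-99b-5p, miR-125a-5p and miR-125b-5p did not pass and kept 51.8%, 66.1% and 48.6%. On the 6 arrays alone miR-125b-5p was lower, with an unchanged mean difference and a limma adjusted p of 0.0108.

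Markers of other liver and blood cells were mostly lower as well. The shares to set beside them are 24.4% of all miRNAs tested and 44.5% of the 272 detected on all 3 arrays with small RNAs. So detected were 3 of 3 tested erythroid, 3 of 5 immune cell and 6 of 7 endothelial and stromal miRNAs. Of the erythroid miRNAs miR-451a kept 2.0% ± 1.3 and miR-144-3p was at least 9.76-fold lower, while miR-486a-5p did not pass. Of the immune cell miRNAs 4 of 5 tested were lower, among them miR-142a-3p at 1.69% and the myeloid miR-223-3p at 14.6%. The endothelial and stromal list had 5 of 7 lower, with the endothelial miR-126a-3p at 5.66%, and 7 of 7 with all probes summed. Of 6 neuron and muscle miRNAs 1 was tested, miR-133a-3p, and it was detected on none of the 6 arrays, with a highest signal of 1.187 units. Among the Drosha-independent miRNAs, made without the usual first cut of the hairpin, 1 of 4 tested was lower, a share near the 24.4% of all miRNAs tested (miR-320-3p, change -2.49, limma adjusted p = 0.000223). miR-877-3p kept 153.0% ± 30.9. miR-484 was detected on no depleted array and kept 96.5% ± 18.3, but 61.0% ± 13.4 when both of its probes were summed on every array, since the signal of a detected miRNA leaves out probes that were not themselves detected.

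By the number in the name, which broadly follows the time of naming, the lower calls lay mostly in the oldest class. Of the 141 tested miRNAs numbered below 300 (the let-7 family included), 86 were lower and 1 higher, 61.0% lower. The share was 25.8% of 124 from 300, 10.0% of 40 from 1000 and 9.82% of 326 numbered 3000 and above. These shares, and the median changes that follow, depend in part on which miRNAs had signal to lose. Of the 141 below 300, 109 were detected on all 3 arrays with small RNAs, but only 99 of the 326. The filter counted all arrays of the series, so the others may have passed it on arrays outside this comparison. The median change below 300 was -1.74, -2.66 and -2.41 in mice 7, 10 and 9, and of the class of 3000 and above 0.08, 0.16 and -0.23, so the classes were apart in every mouse. Among detected miRNAs the share numbered below 300 fell by 8.63 ± 3.64 percentage points (SD of 3 mice), again at the lowest p of the exact permutation test, 0.1. The share of signal left was taken only over miRNAs detected on all 3 arrays with small RNAs. Its median was 11.6% over 109 miRNAs below 300 and 95.6% over 99 of 3000 and above. These medians count each miRNA alike, bright or dim. By summed signal the classes moved the other way in every mouse. The mean share of the summed signal held below 300 rose from 28.05% to 50.63%. That of 3000 and above, the class of miR-6366, fell from 69.79% to 35.61%.

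Among the brightest signals left after depletion, several did not pass the test. miR-494-3p, the third brightest, gave 314.3, 639.0 and 320.9 units with small RNAs and 344.0, 626.0 and 274.8 units without, 97.7% ± 11.9. Its change was 0.03 (SE 0.49, limma adjusted p = 0.987), and the higher signal of mouse 10 was present on both of its arrays. miR-1224-5p had 189.4, 261.2 and 189.9 units before and 211.2, 359.3 and 176.3 units after, and miR-8117 kept 115%, 159% and 94.8%. Also near 0 in change were miR-5620-3p, miR-8110, miR-7080-3p and miR-702-3p, with 90.8% to 96.8% left. A p that misses the threshold does not show equal levels, and the SEs of miR-494-3p, miR-1224-5p and miR-8117 were 0.49, 0.60 and 0.54.

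The share of signal left went with base composition. Over the 236 miRNAs that were detected on all 3 arrays with small RNAs and have a RefSeq sequence (86.8% of 272), the Spearman correlation of G and C content with the mean share left was 0.558. It was 0.507 over the 96 numbered below 300, and 0.365 over the 68 of these with a mean of at least 10 units before depletion. These points are miRNAs, not replicates. They share the 6 arrays, and dim miRNAs lie closer to background: the correlation of the starting signal with the share left was -0.316 over the 96, and 0.0157 over the 68. With miRNA length the correlation was 0.047 over the 96. Below 300 the median share left was 2.62% for 18 miRNAs with under 40% G and C, 7.20% for 26 from 40%, 11.3% for 18 from 45%, 17.9% for 28 from 50% and 91.4% for 6 from 60%. By single base, the share of A had a correlation of -0.507, and those of G, C and U had 0.245, 0.265 and -0.0153.

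The relation did not extend to the late-numbered miRNAs, where it was 0.0963 over 88 of 3000 and above. Among 75 miRNAs with at least 60% G and C, 4 kept under 5%, and these were miR-5100, miR-6366, miR-652-5p and miR-6368, with 61.9%, 72.7%, 62.5% and 66.7% G and C. Lower miRNAs had a median of 47.6% G and C (133 of 154 with a sequence), higher miRNAs 54.8% (20 of 34) and those not called 61.9% (373 of 443). The higher miRNAs without a sequence include miR-466g, miR-467a-3p and miR-466f-3p. These sets also differ in number class and detection, which were not separated here. Under the other scalings and filters and with each mouse left out, the correlation of G and C content with the glog2 change ranged from 0.408 (normexp) to 0.532 over the 96 miRNAs below 300.

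**Figure D4:**
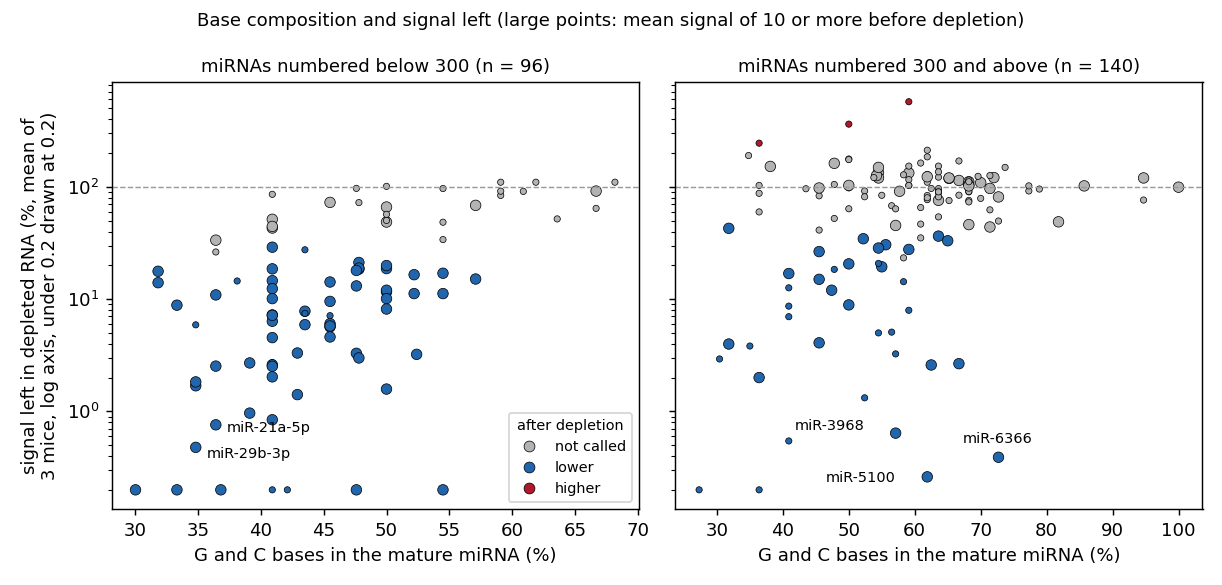
Share of signal left after depletion (y axis, percent, mean of 3 mice, log axis) against the G and C content of the mature miRNA (x axis, percent), for miRNAs detected on all 3 arrays with small RNAs, numbered below 300 (left, n = 96) and 300 and above (right, n = 140), with large points for a mean of 10 units or more before depletion and the lowest shares drawn at the bottom edge. On the left the points climb with G and C content, with a Spearman correlation of 0.507, and on the right miR-5100 and miR-6366 lie far below other miRNAs rich in G and C.

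Arms of the same hairpin and miRNAs encoded side by side often kept unequal shares. Of the 272 miRNAs detected on all 3 arrays with small RNAs 44.5% were lower. Of 21 hairpins with both arms among them, 11 had both arms lower. In 15 the arms have known and different G and C contents, and in 12 of these the arm with more G and C kept the larger share. That arm was often the dimmer one before depletion, as in miR-29c (3.924 against 320.3 units), and the brighter in miR-22, miR-31 and miR-3620. Among the 272, the median share left was 83.9% for means under 10 units and 19.9% from 10 to under 100 units. Starting signal and base composition were not separated in this count. miR-29c-5p kept 50.2% and miR-29c-3p 2.53%, and miR-652-5p kept 2.59% ± 1.5 where miR-652-3p kept 45.3% ± 17.2. Within 10000 bases on the same strand, 22 groups of such miRNAs from at least 2 hairpins were found, with 7 miRNAs counted in more than 1 group because several hairpins give them. All members were lower in 10 groups and some in 10. In the group on chromosome 14 that holds the miR-17-92 cluster, the shares ran from 0.965% (miR-19b-3p) to 68.4% (miR-92a-3p), and on chromosome 17 miR-99b-5p, let-7e-5p, miR-125a-5p and miR-125a-3p all kept 43.0% or more.

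The increases were small in signal. The 34 higher miRNAs had means of at most 17.61 units on the depleted arrays. On the arrays with small RNAs 30 of them were detected nowhere, and 20 were detected on no array of either group. miR-466g gave 0.2526, 0.9132 and 0.9171 units with small RNAs and 14.25, 12.90 and 4.293 units after depletion, at least 11-fold higher (limma adjusted p = 9.26e-05). miR-467a-3p and miR-669n were at least 7.08-fold and 6.46-fold higher, from no detection to detection on all 3 arrays. In each of these mouse 9 had the lowest depleted signal, still above every array with small RNAs.

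miR-574-3p, miR-3082-5p and miR-466f-3p were detected on all 6 arrays. miR-574-3p had 1.244, 2.440 and 2.230 units before and 11.39, 13.20 and 5.848 units after depletion (change 2.09, SE 0.47, limma adjusted p = 0.00133). miR-3082-5p went from 3.783, 5.963 and 4.627 to 16.93, 28.06 and 7.828 units. The groups did not overlap for either. With all probes summed, miR-574-3p had 282% of its starting signal after depletion, against 573% as given here. In the printed sequences of miR-669n and miR-3082-5p runs of alternating G and U can be read, and miR-574-3p holds alternating C and A.

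The miR-466, miR-467, miR-669 and miR-297 families, large groups of repeat-like miRNAs in the mouse, accounted for 16 of the 34 increases. Of their 25 tested members 64.0% were higher and none lower, against 5.39% higher among all miRNAs tested, and the median change was 1.92, positive under every scaling run, from 0.52 (normexp) to 2.70. Much of this lay near or below the detection level, as 11 of the 25 were detected on no depleted array. Of the 16 called higher, 7, 7 and 5 were detected on the depleted arrays of mice 7, 10 and 9. On each array with small RNAs 2 of the 16 were detected. The number called was less stable: 10 were higher without mouse 7 and also without mouse 10, 8 with no normalization and also with spike-in scaling, 6 with normexp and 6 of 12 among miRNAs detected on all 3 arrays of a group. The summed signal of the 25 was 84.9, 115.0 and 94.6 units with small RNAs and 212.0, 303.0 and 99.1 units after depletion. The brightest of them did not pass: miR-466i-5p had 37.50, 47.04 and 39.85 units before and 59.70, 104.5 and 28.53 units after, lower in mouse 9 and higher in the others. Control features at the corners of the array moved with these signals. They read 22.4, 29.5 and 33.0 units with small RNAs and 53.9, 229.7 and 43.7 units on the depleted arrays, and their part in the increases was not tested.

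A further pair of groups from the same mice allowed the comparison to be made on other arrays. It set depleted RNA that had been incubated without RNase (0 U) and isolated again against RNA with small RNAs made without DNase. The study's methods describe the 0 U RNA as an aliquot of the same depleted RNA, so the depletion itself was not repeated. These 6 arrays share mice and depleted RNA but no array with the 6 above, and the groups differ from them in the incubation, the second isolation and the DNase step. There 170 miRNAs were lower, 26.9% of those tested, and 8 were higher, 1.27%. Of the lower calls 144 were shared, which is 93.5% of the 154 and 84.7% of the 170, and all 154 had a negative change in the other pair. Over the 631 miRNAs the changes had a Pearson correlation of 0.895 across miRNAs. The graded shares returned as well: let-7b-5p, let-7c-5p, let-7a-5p and let-7f-5p kept 66.1%, 47.2%, 30.3% and 12.4%, miR-15b-5p 47.8% and miR-15a-5p 1.81%, and miR-122-5p and miR-122-3p 25.9% and 2.56%. The correlation of G and C content with the share left was 0.529 over 92 miRNAs below 300.

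Of the increases only 2 of 34 were called in the other pair, miR-5132-5p and miR-8090, both chosen after their values were seen. None of the 16 of the repeat-like families was called there. The summed signal of those 16 was 79.4, 93.5 and 31.8 units on the untreated depleted arrays and 7.42, 17.0 and 5.84 units on the 0 U arrays, close to the 11.3, 15.6 and 14.2 units with small RNAs. Those 16 were picked by their rise on the untreated depleted arrays, so part of this contrast follows from the choice. All 25 tested members together gave 64.9, 135.0 and 42.1 units on the 0 U arrays. On the untreated depleted arrays they gave 212.0, 303.0 and 99.1 units, and with small RNAs 84.9, 115.0 and 94.6. The corner features were at 16.4, 20.3 and 25.6 units on the 0 U arrays. The difference between the pairs was itself tested, and 3 miRNAs passed, 0.475% of those tested. miR-468-3p and miR-467a-3p rose more in the untreated pair, by 3.58 (SE 0.67, limma adjusted p = 0.0106) and 2.08 (SE 0.42, limma adjusted p = 0.0184). miR-5119 changed by 2.32 less there (SE 0.42, limma adjusted p = 0.0106), since it was detected on the 0 U arrays alone of these 12, at 6.487, 9.388 and 7.476 units. miR-466g and miR-669n did not pass this test (limma adjusted p = 0.0594 and 0.0651).

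**Figure D5:**
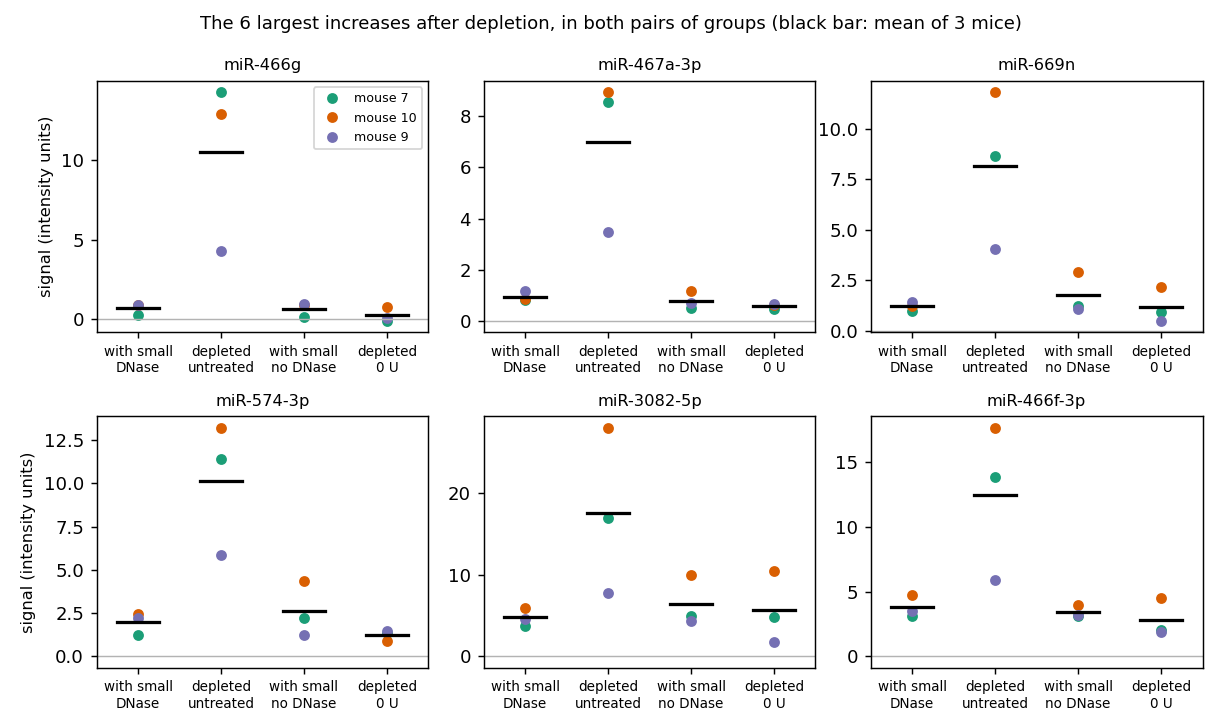
Signal in intensity units (linear axis) of the 6 miRNAs with the largest increases, on the 12 arrays of both pairs of groups, with a point for each mouse and black bars at the means of 3 mice. All 6 are raised on the untreated depleted arrays, miR-466g to 4.293 to 14.25 units, and not on the depleted arrays at 0 U.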

How the data were processed

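RNA was hybridized to 1-colour Agilent mouse miRNA arrays with 1881 miRNAs and 30 spots each. Per the file headers, the authors scanned them with Feature Extraction 10.10.1.1, and the deposited files hold background-subtracted fluorescence intensity with a detection flag. The deposited table holds log2-type (glog2) values from the authors' variance stabilizing normalization (vsn) and served as an alternative.

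Signal was the total gene signal where flagged detected, which leaves out undetected probes, otherwise the sum over all probes. Summing all probes on every array was an alternative chosen after seeing the data. vsn was rewritten in Python 3.11.15 (lowest correlation with the deposited values 0.99983; array scales returned within 0.0234 on simulated data). miRNAs detected on at least 5 of 24 arrays were tested in limma 3.58.1 (R 4.3.3), with 8 group means, a variance trend and no block. For mouse 9 the titles and descriptions of the RNase-treated arrays name opposite doses, and the descriptions were followed. Those arrays enter here only through the normalization, the detection filter and the shared estimate of variance. On simulated data of 631 miRNAs the fit recovered 66% of changes of 1.5 and 97% of 2.5, with 9 false calls. Shares left used unnormalized signals, with negative signals set to 0.

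Replicate numbers mark the mouse in the labels, which pairs the arrays. Deviations from group means correlated at 0.15, 0.092 and 0.029 within mice 7, 10 and 9.

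Members and lists were chosen with earlier results of these data known. Named miRNAs were the 10 largest decreases and 6 largest increases among calls alike in 3 mice and detected throughout 1 group, the 8 brightest of each group, the 5 nearest to no change, up to 4 of the brightest of each list, and those that differed between pairs. Others were chosen after their values were seen. Of the 631 miRNAs, 526 (83.4%) had a RefSeq sequence. Positions follow GRCm38.p6, the array design mm9.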

Additional observations from a re-analysis of the deposited data

Results flagged for a closer look

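In 3 miRNAs the change after depletion differed between the 2 pairs of groups by an interaction term in limma. The change in the untreated pair minus that in the 0 U pair was 3.58 for miR-468-3p (3.19 against -0.39), 2.08 for miR-467a-3p (2.23 against 0.16) and -2.32 for miR-5119 (0.18 against 2.50), each on the glog2 scale with 3 mice a group. miR-468-3p was detected on 2 untreated depleted arrays, at a mean of 2.76 units, and on none of the others. An unadjusted p under 0.05 was reached by 49 of the 631 miRNAs. With no normalization, with spike-in scaling and with any mouse left out, no miRNA passed.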

How the results depend on the processing

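The lower calls (154, and 170 in the 0 U pair) stayed within 1.5 times except with the 75th percentile of the miRNAs detected on all arrays (82 and 95) and normexp (42 and 39). The higher calls (34 and 8) were 19 and 2 with no normalization, 22 and 1 with spike-in scaling, 252 and 227 with the 75th percentile of the miRNAs detected on all arrays, 107 and 122 with quantile normalization, 64 and 83 with vsn on the tested miRNAs, 100 and 15 with no filter and 11 and 2 among miRNAs detected on all 3 arrays of a group. In the 0 U pair they were also 31 with normexp and 80 with the 75th percentile over every miRNA. A rank test in place of limma called 0 miRNAs in either direction and pair, with 0 at an unadjusted p under 0.05, since 3 arrays against 3 cannot go below 0.1. The difference between the pairs (3 calls) had 0 with no normalization and spike-in scaling, 17 and 20 with the 75th percentiles of all and of the commonly detected miRNAs, 19 with quantile normalization, 7 with vsn on the tested miRNAs and 19 with no filter.

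Leaving out 1 mouse gave 130 to 147 lower and 22 to 31 higher calls, 138 to 159 and 4 to 11 in the 0 U pair, and 0 for the difference. The 22 higher calls were those without mouse 10, and the 4 and 5 of the 0 U pair those without mice 7 and 10. With the mouse as a replicate block 162 were lower and 36 higher, and no call was lost. On the 6 arrays alone with that block, chosen after seeing the data, 183 were lower and 38 higher, miR-122-5p lost its call (adjusted p = 0.247) and let-7a-5p and miR-125b-5p gained one (adjusted p = 0.00654 and 0.00878). With all probes summed on every array, also chosen later, 163 were lower and 39 higher, 7 differed between the pairs, the median share left was 46.7% in place of 47.5%, and its correlation with G and C content below 300 was 0.511.

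At a fixed signal level of 2.19 units in place of the flag, the number detected differed by -38.3 after depletion, not -96.0, and the shares numbered below 300 and 3000 and above moved by -12.41 and 9.21 percentage points. The median change below 300 was -0.31, -1.34, -1.76, -0.39 and -0.20 with the 75th percentile of the commonly detected miRNAs, quantile normalization, vsn on the tested miRNAs, normexp and no filter, and that of 3000 and above 0.71 with that percentile and 0.41 with that vsn.

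Some named miRNAs that were called in at least 1 of the fits changed sign. With the 75th percentile of the commonly detected miRNAs the changes were 1.77 (let-7b-5p), 1.25 (let-7c-5p), 0.39 (miR-122-5p), 1.61 (miR-125a-5p), 1.12 (miR-133a-3p), 1.59 (miR-486a-5p), 2.09 (miR-5620-3p) and 1.685 (miR-92a-3p). With quantile normalization they were 2.67 (let-7b-5p), 1.575 (let-7c-5p), 2.365 (miR-122-5p), 1.68 (miR-125b-5p), 0.13 (miR-23b-3p), 0.00 (miR-3963, no change) and 1.705 (miR-92a-3p), and with normexp, run on median spot signals, 2.10, 1.53, 1.745, 1.03, 0.008, 0.249 and 1.06. Among miRNAs called in neither fit, 2, 4 and 6 had the other sign under these settings in turn, let-7a-5p in each of them (0.618, 0.884 and 0.804) and miR-125b-5p under the first (1.168). The cause was not tested.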
